A study of Homo sapiens with 12 samples.

Results

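The 44 genes described here are downstream transcriptional targets of p53 other than its main feedback and cell-cycle regulators, taken by symbol from a list and matched through their Ensembl identifiers. All 44 were found among the 60660 gene identifiers of the count table. They were arranged in 5 roles: growth arrest and cell cycle with 8 genes, DNA repair with 4, metabolism and redox with 9, death, survival and autophagy with 16, and secreted, surface and signalling proteins with 7. Counts were high enough for a test in 43 of the 44, and in 21803 genes in all. SPATA18, which codes for a mitochondrial quality-control protein, was the 1 member left out by the filter on low counts.

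RNA from cultured cells labelled HS578T, a mesenchymal-like breast cancer line, was sequenced 48 h after doxorubicin or its DMSO vehicle was added. Doxorubicin is an anthracycline that traps topoisomerase II on DNA and so leads to double-strand breaks. The 4 groups, with 3 libraries each, were cells labelled as having lost 1 copy of the short arm of chromosome 17 (17p) treated with 1 µM doxorubicin, the same labelled-deleted cells in DMSO, labelled-intact cells treated with 170 nM doxorubicin, and labelled-intact cells in DMSO. The titles name the labelled-deleted libraries 17PKO and the labelled-intact ones Cas9, and the sources used here do not say whether either population was 1 clone. The doses differ between the genotypes, so dose and genotype cannot be told apart where treated cells of both kinds enter a comparison. The labels do not say that replicates were separate cultures, so p-values cover only how these libraries scatter, which could be technical.

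p53 is a transcription factor, encoded on 17p, that is stabilised after DNA damage and binds response elements made of 2 copies of a 10-base motif. Its targets slow the cell cycle, repair DNA, change metabolism and redox state, and promote cell death, while others of them favour survival. HS578T is recorded as carrying a mutant p53, and that record was not checked here.

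Each library held between 66150539 and 99142099 counts in genes, and 3 counts, the limit for a gene at 0, stood for 0.0303 to 0.0454 counts per 1e6 (CPM). That limit covers counting error only. A mesenchymal list had 9 of 10 markers at 10 CPM or more in every library, and all 8 blood markers were under 1 CPM. An epithelial list had 6 of 10 under 1 CPM in every library and 2, the keratin genes KRT8 and KRT18, at 10 CPM or more in every library. None of the 44 genes lies on 17p. The 399 genes tested there had a median log2 fold change of -0.12 in labelled-deleted against labelled-intact cells in DMSO, against 0.04 for all other genes. POLR2A, the 17p gene for the large subunit of RNA polymerase II, was at 543, 780 and 483 CPM in labelled-deleted DMSO libraries and at 489, 526 and 432 CPM in labelled-intact DMSO libraries, and did not pass the test (log2 fold change 0.32, SE 0.16, adjusted p = 0.151). A check of sex-linked genes did not match the karyotype recorded for the line in 12 of 12 libraries. The groups are therefore called by their labels, and the name of the line is used here only as a label. Replicate 2 of the labelled-deleted DMSO cells and replicate 1 of the labelled-intact 170 nM cells stood apart, with 6.9% and 5.54% of counts from the mitochondrial genome against 2.61% to 3.57% in the others.

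The promoters of the members were searched for the p53 motif. RefSeq windows on GRCh38.p14, from 250 bases before to 50 bases after a start, were found for 39 of the 44 genes, in 48 windows. ASCC3, CMBL, GADD45A, PHLDA3 and TP53INP1 had no entry. The 10-base p53 consensus, which reads the same way on both strands, occurred in 8 of the 48 windows (16.7%) and in 2329 of all 35116 windows in the table (6.63%). A head-to-tail pair with up to 13 bases between the copies occurred in 1 member window, that of DDB2, and in 10 windows in all (0.0285%). A match is a description of the letters, and no binding was measured. The 6 windows below are shown because they hold the motif, DDB2 first for its pair and the others by the strength of their doxorubicin test. Capitals mark the motif, and each sequence reads 5′ to 3′ on the gene's strand.
DDB2, chr11:47214724-47215023, plus strand: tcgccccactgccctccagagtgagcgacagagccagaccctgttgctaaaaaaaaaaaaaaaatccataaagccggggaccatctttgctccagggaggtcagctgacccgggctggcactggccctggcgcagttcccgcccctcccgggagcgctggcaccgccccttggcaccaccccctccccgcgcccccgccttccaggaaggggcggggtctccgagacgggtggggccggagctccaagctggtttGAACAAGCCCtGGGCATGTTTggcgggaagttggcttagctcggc
ABHD4, chr14:22598050-22598349, plus strand: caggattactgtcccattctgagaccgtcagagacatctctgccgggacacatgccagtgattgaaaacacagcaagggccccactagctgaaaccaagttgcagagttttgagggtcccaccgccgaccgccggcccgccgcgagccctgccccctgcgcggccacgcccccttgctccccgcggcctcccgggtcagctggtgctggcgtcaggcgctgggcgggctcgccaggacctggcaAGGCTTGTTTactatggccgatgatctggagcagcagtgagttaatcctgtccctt
SESN1, chr6:109008939-109009238, minus strand: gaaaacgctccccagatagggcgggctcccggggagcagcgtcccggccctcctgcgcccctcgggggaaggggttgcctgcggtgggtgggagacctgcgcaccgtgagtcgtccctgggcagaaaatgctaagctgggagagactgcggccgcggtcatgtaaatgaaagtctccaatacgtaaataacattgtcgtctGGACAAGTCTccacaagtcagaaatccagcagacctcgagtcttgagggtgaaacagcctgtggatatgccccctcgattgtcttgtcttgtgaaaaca
RAP2B, chr3:153161976-153162275, plus strand: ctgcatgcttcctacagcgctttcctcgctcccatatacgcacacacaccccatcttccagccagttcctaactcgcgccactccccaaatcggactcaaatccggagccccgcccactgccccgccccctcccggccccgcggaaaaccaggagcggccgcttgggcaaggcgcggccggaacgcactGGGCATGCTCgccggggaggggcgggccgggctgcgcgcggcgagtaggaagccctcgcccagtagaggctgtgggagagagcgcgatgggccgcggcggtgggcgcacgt
FDXR, chr17:74872945-74873244, minus strand: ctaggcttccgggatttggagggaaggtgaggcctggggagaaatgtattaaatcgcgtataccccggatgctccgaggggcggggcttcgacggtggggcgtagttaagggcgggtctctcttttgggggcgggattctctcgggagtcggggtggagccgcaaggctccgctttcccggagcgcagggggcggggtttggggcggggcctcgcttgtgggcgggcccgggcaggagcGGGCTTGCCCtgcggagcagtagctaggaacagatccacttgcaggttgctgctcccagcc
AEN, chr15:88621090-88621389, plus strand: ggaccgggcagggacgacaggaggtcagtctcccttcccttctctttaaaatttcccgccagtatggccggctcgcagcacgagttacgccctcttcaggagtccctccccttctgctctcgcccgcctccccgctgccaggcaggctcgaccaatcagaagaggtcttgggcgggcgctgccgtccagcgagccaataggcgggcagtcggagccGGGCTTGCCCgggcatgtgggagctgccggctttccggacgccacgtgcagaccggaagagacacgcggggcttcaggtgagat

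In the DDB2 window both copies lie just after the start, at 5 and 16 bases, with 1 base between them. The single copies in the ABHD4, FDXR, AEN, SESN1 and RAP2B windows begin 6, 11, 34, 49 and 61 bases before the start. That of ABHD4 runs across the start. PLK2 and RPS27L hold 1 copy each as well, and DDB2, FDXR and SESN1 have other listed starts whose windows hold none.

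The first comparison asked how these genes answered 1 µM doxorubicin in labelled-deleted cells. Of the 43 tested, 42 rose, none fell and 1, TOB1, did not pass the test at an adjusted p of 0.05 (edgeR quasi-likelihood test, Benjamini-Hochberg over all genes), while 30.7% of all genes passed, 17.5% higher and 13.1% lower. The members' median log2 fold change was 1.87, with a range of 0.31 to 5.92, against -0.02 over all genes tested. In the same 42 genes every doxorubicin library was above every DMSO library, which held for 24.6% of all genes tested, while 20.7% had every doxorubicin library lower. EDA2R and SERPINB5, among the 42, passed the filter on low counts through the 1 µM libraries alone. In any comparison of those libraries a call of these genes could only be higher. In bulk RNA, more cells that express a gene and more RNA per cell cannot be told apart. The summed mesenchymal markers moved between the same groups, at 5050 to 5160 CPM in 1 µM libraries and 7130 to 7600 CPM in DMSO libraries, and their part in these results was not tested. Not all markers moved with the sum: AXL and COL6A1 averaged higher at 1 µM, and the others on the list lower.

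**Figure D1:**
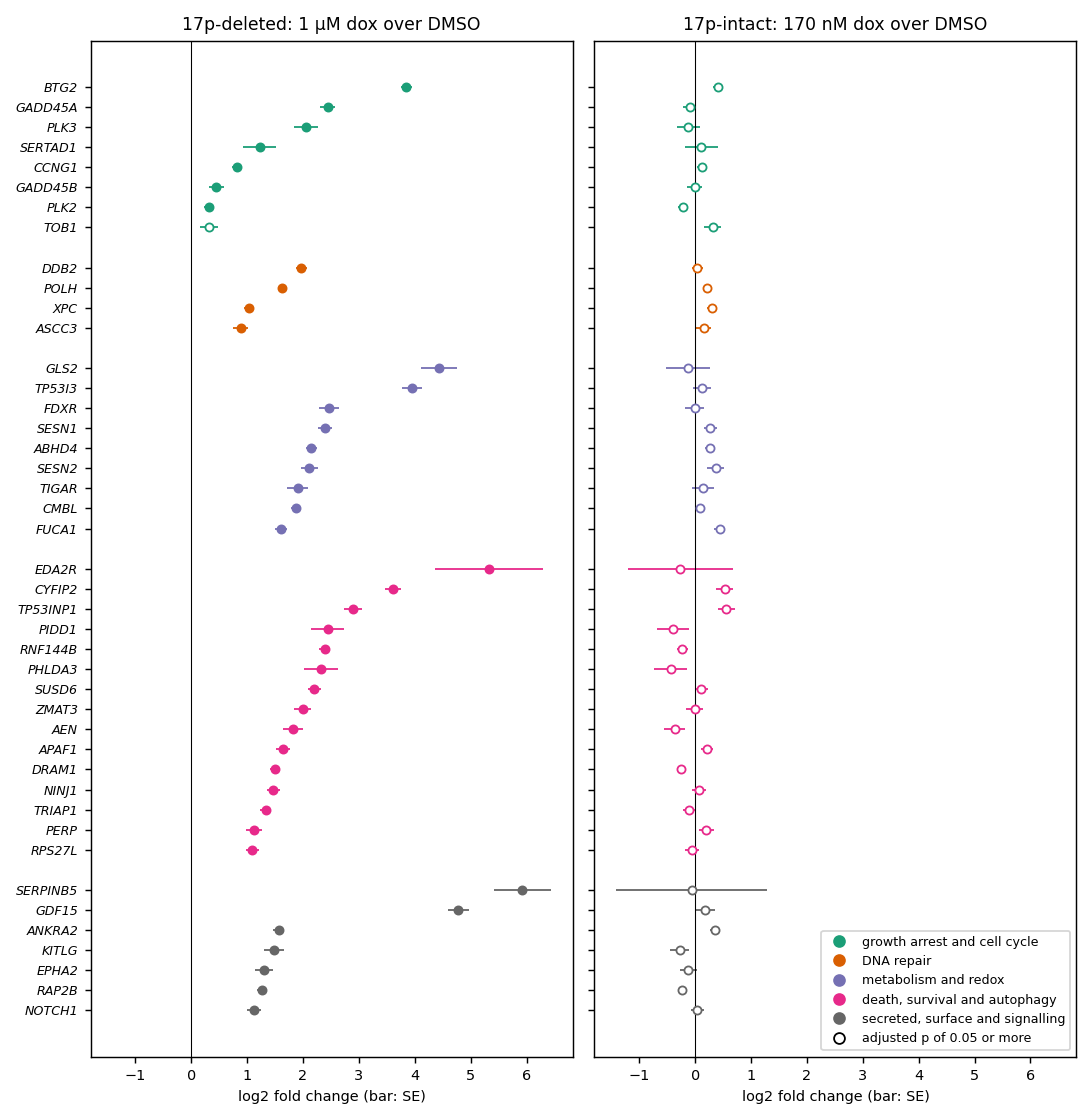
Log2 fold change of each tested member (y axis, by role) after 1 µM doxorubicin in labelled-deleted cells and after 170 nM in labelled-intact cells, each against its own DMSO libraries. Points are coloured by role, bars are SE, and open points did not pass at an adjusted p of 0.05. The 1 µM values run from 0.31 to 5.92 and the 170 nM values from -0.44 to 0.56.

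Growth arrest genes had the lowest median of the 5 roles, 1.01, with 7 of 8 called higher. BTG2, an antiproliferative protein that recruits the CCR4-NOT deadenylase, lies at chr1:203305491-203309602 on hg38. It was at 180, 190 and 194 CPM with doxorubicin, against 12.8, 12.4 and 13.8 CPM in DMSO. All 3 treated libraries were far above the DMSO libraries, a log2 fold change of 3.85 (SE 0.09, adjusted p = 3.85e-11). GADD45A, a stress protein that binds PCNA and p38-activating kinases, was at 245, 276 and 237 CPM with doxorubicin and at 41.7, 55.7 and 42.1 CPM in DMSO. It rose by 2.44 on the log2 scale (SE 0.13, adjusted p = 1e-08), with DMSO replicate 2 the highest of its group. PLK3, a stress-activated polo-like kinase, was at 22.6, 23.6 and 25.0 CPM with doxorubicin and at 6.56, 3.6 and 7.07 CPM in DMSO. It rose by 2.05 (SE 0.21, adjusted p = 4.74e-06), and here DMSO replicate 2 was the lowest.

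Relatives of these genes had smaller log2 fold changes. TOB1, of the same antiproliferative family as BTG2, was at 62.1, 62.0 and 67.9 CPM with doxorubicin, against 45.7, 67.0 and 42.1 CPM in DMSO. DMSO replicate 2 overlapped the treated libraries, and the log2 fold change of 0.31 did not pass (SE 0.16, adjusted p = 0.159). Without DMSO replicate 2 it was 0.53 (adjusted p = 0.00362), and with the trend of GC content taken out of every library it was 0.38 (adjusted p = 0.00774). GADD45B averaged 38.4 ± 2.78 CPM with doxorubicin and 28.2 ± 4.4 CPM in DMSO (SD, n = 3 each) and rose by 0.45 (SE 0.13, adjusted p = 0.0195). That call was lost without DMSO replicate 2 (0.31, adjusted p = 0.0662) and without 1 µM replicate 2 (0.38, adjusted p = 0.0847). PLK2, a polo-like kinase of centriole duplication, was at 446, 453 and 453 CPM with doxorubicin and at 326, 402 and 359 CPM in DMSO. The groups did not overlap, but the rise of 0.31 (SE 0.09, adjusted p = 0.0143) was lost without DMSO replicate 1 (0.24, adjusted p = 0.0707), without 1 µM replicate 3 (0.31, adjusted p = 0.0522) and with no filter on low counts (0.31, adjusted p = 0.0509). CCNG1, cyclin G1, rose by 0.81 (SE 0.09), and SERTAD1, a CDK4-binding regulator of E2F activity, by 1.22 (SE 0.30).

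**Figure D2:**
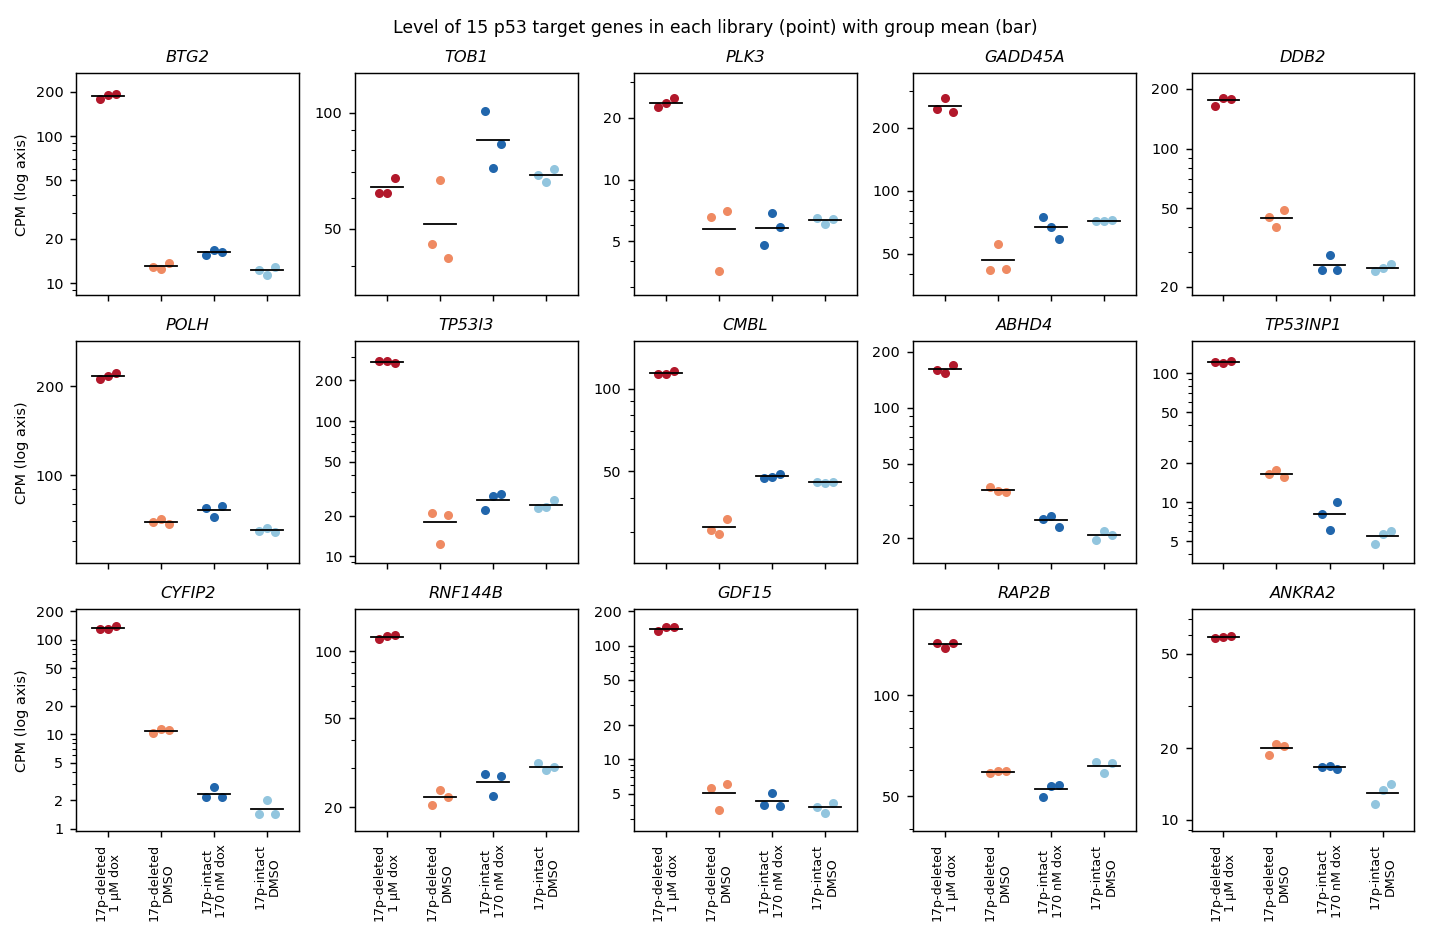
CPM on a log axis of 15 members in each of the 12 libraries (points) with the group mean (bar), by group along the x axis. BTG2 runs from 180 to 194 CPM in the 1 µM libraries and stays at 16.9 CPM or less elsewhere, while TOB1 overlaps between groups.

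All 4 DNA repair genes rose. POLH, the translesion polymerase eta, was at 211, 216 and 222 CPM with doxorubicin, against 69.8, 71.1 and 68.5 CPM in DMSO. Replicates lay close together and the groups far apart, with a log2 fold change of 1.63 (SE 0.07, adjusted p = 3.07e-09). DDB2, the damaged-DNA binding subunit of global nucleotide excision repair and the holder of the motif pair printed above, was at 165, 181 and 179 CPM with doxorubicin and at 44.9, 40.3 and 48.7 CPM in DMSO. It rose by 1.97 (SE 0.10, adjusted p = 8.71e-09). XPC, which works beside DDB2 in damage recognition, rose by 1.03 (SE 0.08), and ASCC3, a helicase of alkylation repair, by 0.88 (SE 0.14). The strand setting of the counting is not given in the sources used here, and XPC shares 30.4% of its exon bases with other genes, so its value is uncertain.

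The metabolism and redox genes rose in 9 of 9 cases, with the highest median of the 5 roles, 2.15. TP53I3, a quinone oxidoreductase linked to oxidative stress, was at 278, 277 and 270 CPM with doxorubicin, against 20.8, 12.4 and 20.1 CPM in DMSO. Its log2 fold change was 3.95 (SE 0.18, adjusted p = 2.92e-09). ABHD4, a lipase of N-acyl phospholipid metabolism whose promoter holds 1 motif copy, was at 160, 153 and 170 CPM with doxorubicin and at 37.7, 35.6 and 35.4 CPM in DMSO. The groups were far apart, with a rise of 2.15 (SE 0.09, adjusted p = 1.75e-09). CMBL, a cytosolic hydrolase, was at 113, 113 and 116 CPM with doxorubicin and at 30.6, 29.6 and 33.5 CPM in DMSO, a rise of 1.87 (SE 0.08, adjusted p = 1.8e-09).

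The sestrins, stress sensors that restrain mTORC1, rose by 2.39 for SESN1 (SE 0.12) and 2.11 for SESN2 (SE 0.15). FDXR, the mitochondrial ferredoxin reductase, averaged 117 ± 7.65 CPM with doxorubicin and 21.1 ± 5.38 CPM in DMSO (SD, n = 3 each). FUCA1, a lysosomal fucosidase, rose by 1.60 (SE 0.11), and TIGAR, a fructose bisphosphatase that slows glycolysis, by 1.90 (SE 0.19). GLS2, a mitochondrial glutaminase, was at 11.3, 9.84 and 10.3 CPM with doxorubicin and at 0.459, 0.543 and 0.455 CPM in DMSO. Its rise of 4.43 (SE 0.32) was the largest of this role, but GLS2 shares 82.8% and TIGAR 45.6% of their exon bases with other genes, so both are uncertain.

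Of the 16 death, survival and autophagy genes, 15 were tested and all 15 rose, with a median of 1.99. CYFIP2, a subunit of the actin-regulating WAVE complex, was at 129, 130 and 139 CPM with doxorubicin, against 10.2, 11.4 and 11 CPM in DMSO, a log2 fold change of 3.61 (SE 0.14, adjusted p = 1.05e-09). RNF144B, an E3 ubiquitin ligase, was at 114, 117 and 118 CPM with doxorubicin and at 20.4, 23.8 and 22.2 CPM in DMSO, a rise of 2.39 (SE 0.10, adjusted p = 2.06e-09). TP53INP1, a stress protein of autophagy and cell death, was at 123, 120 and 125 CPM with doxorubicin and at 16.5, 17.7 and 15.6 CPM in DMSO, a rise of 2.89 (SE 0.16, adjusted p = 1.46e-08). In all 3 genes the replicates of a group lay within a narrow band and the groups were well apart.

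APAF1, the scaffold of the apoptosome, rose by 1.64 (SE 0.12), PIDD1, the scaffold of the caspase-2 complex, by 2.44 (SE 0.30) and PERP, a membrane protein of apoptosis and desmosomes, by 1.12 (SE 0.15). PHLDA3, which competes with AKT for membrane lipids, rose by 2.32 (SE 0.30), and AEN, an apoptosis-enhancing nuclease, by 1.82 (SE 0.18). PHLDA3 shares 19.1% of its exon bases with another gene on the same strand, so its value is uncertain. TRIAP1, a mitochondrial protein that counters apoptosis, rose by 1.33 (SE 0.10). ZMAT3, an RNA-binding splicing regulator, rose by 1.99 (SE 0.15), and DRAM1, a lysosomal protein of autophagy, by 1.49 (SE 0.08). NINJ1, which ruptures the plasma membrane of dying cells, rose by 1.47 (SE 0.12), and SUSD6, a membrane protein with a sushi domain, by 2.20 (SE 0.12). RPS27L rose by 1.09 (SE 0.12), but it has a near copy in RPS27, and how the counting split reads between them is not known.

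EDA2R, a receptor of the TNF receptor family, rested on few reads, with 22, 56 and 37 counts with doxorubicin and 0, 0 and 2 counts in DMSO. The summed counts of 115 and 2 gave a ratio of 47.3 (exact 95% interval 12.8 to 395, counting error only), and it passed the test (adjusted p = 0.000849). Both DMSO counts were in replicate 3, so without it the DMSO libraries were all at 0. EDA2R entered the test through the 1 µM libraries alone, so its call could only be higher. SPATA18 had 0, 3 and 0 counts with doxorubicin, 3, 0 and 0 in labelled-deleted DMSO, 0, 2 and 0 with 170 nM and 2, 0 and 4 in labelled-intact DMSO libraries. At this depth only a large difference in SPATA18 could have been seen. Its ratio of 1 µM to DMSO in labelled-deleted cells was 0.822 (exact 95% interval 0.11 to 6.14, counting error only).

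All 7 secreted, surface and signalling genes rose, with a median of 1.48. GDF15, a secreted stress cytokine, was at 134, 144 and 144 CPM with doxorubicin, against 5.61, 3.61 and 6.07 CPM in DMSO. Its log2 fold change was 4.78 (SE 0.19, adjusted p = 1.29e-09). RAP2B, a small GTPase whose promoter holds 1 motif copy, was at 143, 139 and 143 CPM with doxorubicin and at 58.6, 59.3 and 59.5 CPM in DMSO, a rise of 1.26 (SE 0.08, adjusted p = 3.8e-08). ANKRA2, an ankyrin-repeat protein, was at 58.6, 59.1 and 59.3 CPM with doxorubicin and at 18.7, 20.8 and 20.4 CPM in DMSO, a rise of 1.56 (SE 0.09, adjusted p = 3.69e-08). No library of 1 group reached the other group in any of these 3 genes. KITLG, the ligand of the KIT receptor, rose by 1.48 (SE 0.18), EPHA2, an ephrin receptor kinase, by 1.30 (SE 0.16), and the receptor NOTCH1 by 1.12 (SE 0.12). SERPINB5, the serpin maspin, had 260, 312 and 346 counts with doxorubicin and 8, 2 and 2 counts in DMSO. Its log2 fold change of 5.92 (SE 0.51) was the largest of all members and was 6.95 without DMSO replicate 1. SERPINB5 entered the test through the 1 µM libraries alone, so its call could only be higher and its rank is only a description.

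**Figure D3:**
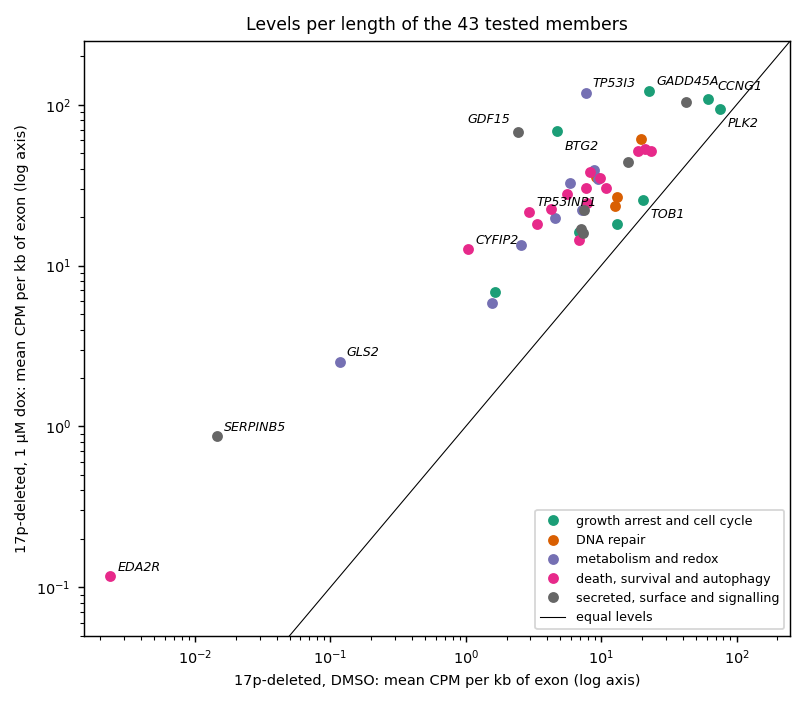
Mean CPM per kilobase of exon in 1 µM libraries (y axis) against DMSO libraries (x axis) of labelled-deleted cells for the 43 tested members, both axes log, coloured by role, with the line of equal levels. All members lie above the line, from EDA2R at 0.117 against 0.00235 to GADD45A at 122 against 22.5 CPM per kilobase.

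Per kilobase of exon, the levels of members in 1 µM libraries were headed by GADD45A at 122, TP53I3 at 119, CCNG1 at 108 and EPHA2 at 104 CPM per kilobase. In the DMSO libraries of the same cells, PLK2 at 76 and CCNG1 at 61.8 CPM per kilobase were the highest. BTG2 and GDF15 reached 68.2 and 67.4 CPM per kilobase with doxorubicin, against 4.72 and 2.44 in DMSO. SERPINB5, in spite of its fold change, stayed at 0.868 CPM per kilobase with doxorubicin, against 0.0145 in DMSO.

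A list of 52 other p53 targets, none of them among the 44, was read beside them. Of these, 47 rose, 1 fell and 4 did not pass, where 17.5% of all genes tested passed higher and 13.1% lower. The median log2 fold change of the list was 1.83, against -0.02 over all genes tested. ALOX5 and PADI4, among the 47, entered the test through the 1 µM libraries alone, so their calls could only be higher. CDKN1A, the CDK inhibitor p21, was at 1300, 1120 and 1280 CPM with doxorubicin, against 82.8, 50.7 and 84.5 CPM in DMSO, and rose by 4.08 (SE 0.19, adjusted p = 3.97e-09). MDM2, the ubiquitin ligase that degrades p53, was at 2130, 2110 and 2160 CPM with doxorubicin and at 187, 230 and 176 CPM in DMSO, and rose by 3.43 (SE 0.15, adjusted p = 2.64e-09). After CDKN1A, the largest rises were those of VWCE by 3.94 (SE 0.32) and the keratin gene KRT15 by 3.72 (SE 0.20), and the smallest were those of DCP1B by 0.61 (SE 0.16) and TRIM32 by 0.58 (SE 0.09). STEAP3, an endosomal ferrireductase, was at 15.2, 14.4 and 15.3 CPM with doxorubicin and at 29.5, 21.0 and 31.0 CPM in DMSO, and fell by 0.86 (SE 0.13, adjusted p = 0.000246). TNFRSF10C, TNFRSF10D, PTP4A1 and ARHGEF3 did not pass, with log2 fold changes of -0.02 (SE 0.71), 0.18 (SE 0.08), 1.04 (SE 0.54) and 0.26 (SE 0.10). TNFRSF10C and PTP4A1 had only 90 and 156 counts over all libraries, so a change in them could have been missed.

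Doxorubicin at 170 nM in labelled-intact cells gave no call among the members. Of the 43 tested, 0 passed in either direction, against 0.0596% of all genes, 0.0275% higher and 0.0321% lower, with a median log2 fold change of 0.07 and a range of -0.44 to 0.56. At an unadjusted p under 0.05 there were 14 members, 10 higher and 4 lower, against 11.5% of all genes, and DESeq2 called 6 members higher, and 1.07% of the 15515 genes to which it gave an adjusted p. The libraries of both groups did not overlap in 16 members, 11 with all treated libraries higher and 5 with all lower, which held for 10.7% and 8.67% of all genes. None of the 52 other targets passed, with a median of 0.05. The summed mesenchymal markers were at 8580 to 8680 CPM in 170 nM libraries and 9750 to 10300 CPM in labelled-intact DMSO libraries.

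BTG2 had the lowest p of the members at 170 nM, at 15.6, 16.9 and 16.2 CPM, against 12.3, 11.4 and 12.8 CPM in labelled-intact DMSO. Its groups did not overlap, and its log2 fold change was 0.41 (SE 0.09, adjusted p = 0.0899). FUCA1 was at 22.1, 25.4 and 26.4 CPM with 170 nM and at 18.6, 16.5 and 19.5 CPM in DMSO, with a log2 fold change of 0.44 (SE 0.10, adjusted p = 0.133). ANKRA2 was at 16.7, 16.8 and 16.4 CPM with 170 nM and at 11.6, 13.3 and 14.1 CPM in DMSO, with a log2 fold change of 0.36 (SE 0.09, adjusted p = 0.165). With the GC trend removed, 1.16% of all genes were called higher, and 4 members passed, which were BTG2 (0.42, adjusted p = 0.014), SESN2 (0.46, adjusted p = 0.0222), FUCA1 (0.43, adjusted p = 0.0459) and CYFIP2 (0.54, adjusted p = 0.0465). TP53INP1 passed without 170 nM replicate 2 (0.72, adjusted p = 0.0346) and BTG2 without labelled-deleted DMSO replicate 2 (0.41, adjusted p = 0.0348). That last library is outside this comparison and enters it only through the single fit of all groups.

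**Figure D4:**
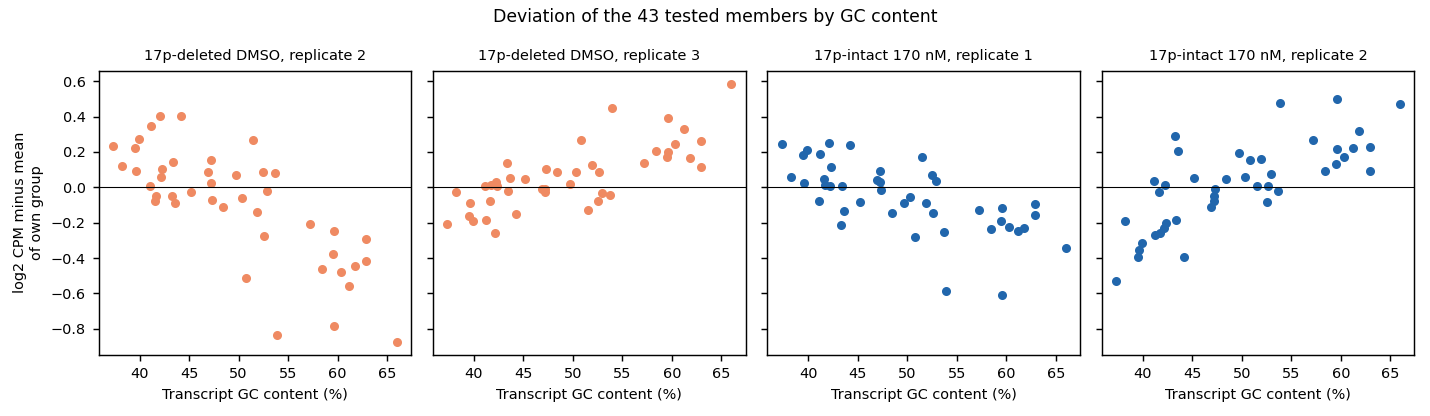
Deviation of each member from its group mean (y axis, log2) against the GC content of its longest transcript (x axis, percent) in 4 libraries, 1 panel each. The members slope down in labelled-deleted DMSO replicate 2 (Spearman rho -0.755) and in 170 nM replicate 1 (-0.719), and up in labelled-deleted DMSO replicate 3 (0.745) and in 170 nM replicate 2 (0.766). Deviations cancel within a group, so a slope in 1 library forces an opposite slope in the others together.

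The members' scatter between replicates moved with GC content in the labelled-deleted DMSO and 170 nM libraries. Slopes of the same sign appeared over all genes with a GC value, with rho of 0.425, -0.583 and 0.505 in labelled-deleted DMSO replicates 1, 2 and 3 and of -0.516, 0.556 and -0.201 in the 170 nM replicates. The correlations are descriptions over genes that share a library. GC content of the members ran from 37.3% to 66%. In labelled-deleted DMSO replicate 1 rho was 0.669 and in 170 nM replicate 3 it was -0.396. In 1 µM libraries rho lay between -0.112 and 0.062, and in labelled-intact DMSO libraries between -0.041 and 0.034. The SD of the members' deviations was 0.32 on the log2 scale in labelled-deleted DMSO replicate 2 and 0.047 in 1 µM replicate 3. PIDD1, the member of highest GC content, was at 22.0, 9.56 and 27.2 CPM in labelled-deleted DMSO libraries, and its 1 µM rise was 2.09 without replicate 2 and 2.35 with the GC trend removed. PHLDA3 was at 21.6, 9.28 and 21.6 CPM in the same libraries, and its rise was 2 without replicate 2. The part of GC content in the 170 nM result was not tested beyond the counts given here.

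Without doxorubicin, labelled-deleted cells differed from labelled-intact cells in both directions. Of the 43 tested members, 12 were higher, 8 lower and 23 did not pass, where 34.9% of all genes passed, 18.8% higher and 16.2% lower. The members' median log2 fold change was 0.20 against 0.04 over all genes, and the 52 other targets gave 15 higher and 14 lower with a median of 0.13. Groups did not overlap in 28 members, 18 with labelled-deleted libraries higher and 10 with them lower, which held for 25.7% and 23.9% of all genes. The summed mesenchymal markers were at 7130 to 7600 CPM in labelled-deleted and 9750 to 10300 CPM in labelled-intact DMSO libraries, and their part was not tested. AXL, COL6A1 and THY1 averaged higher in labelled-deleted cells, and the others on the list lower.

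CYFIP2 had the largest difference in DMSO, at 10.2, 11.4 and 11 CPM in labelled-deleted and 1.45, 2.04 and 1.42 CPM in labelled-intact libraries, a log2 fold change of 2.74 (SE 0.14, adjusted p = 1.9e-08). TP53INP1 was at 16.5, 17.7 and 15.6 CPM in labelled-deleted and 4.76, 5.71 and 6.05 CPM in labelled-intact libraries, a difference of 1.59 (SE 0.15, adjusted p = 4.34e-06). ABHD4 was at 37.7, 35.6 and 35.4 CPM in labelled-deleted and 19.6, 21.9 and 20.8 CPM in labelled-intact libraries, a difference of 0.80 (SE 0.09, adjusted p = 1.15e-05). These 3 genes were higher in every labelled-deleted library. DDB2 was at 44.9, 40.3 and 48.7 CPM in labelled-deleted and 24.0, 25.0 and 26.1 CPM in labelled-intact libraries, a difference of 0.83 (SE 0.10, adjusted p = 2.55e-05). The other members called higher were ZMAT3 at 0.85, APAF1 at 0.68, PERP at 0.64, ANKRA2 at 0.62, SESN1 at 0.58, NOTCH1 at 0.48, CCNG1 at 0.42 and SUSD6 at 0.38.

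PLK2 was the member with the lowest p among those that were lower, at 326, 402 and 359 CPM in labelled-deleted and 662, 639 and 670 CPM in labelled-intact libraries, a log2 fold change of -0.86 (SE 0.09, adjusted p = 7.06e-06). GADD45A was at 41.7, 55.7 and 42.1 CPM in labelled-deleted and 71.5, 71.4 and 72.7 CPM in labelled-intact libraries, a difference of -0.63 (SE 0.12, adjusted p = 0.00132). Both groups were apart in each of these genes. The other members called lower were CMBL at -0.54, DRAM1 at -0.47, RNF144B at -0.46, TP53I3 at -0.44, TRIAP1 at -0.34 and FUCA1 at -0.29. 3 of these calls, and that of SUSD6 among the higher members, were lost when a single library was left out. TP53I3 lost its call without labelled-deleted DMSO replicate 2 (-0.26, adjusted p = 0.104), without any 1 of the labelled-intact DMSO libraries and without 170 nM replicate 3. FUCA1 lost its call without labelled-deleted DMSO replicate 1 or 2 and without labelled-intact DMSO replicate 1 or 3, where it was at -0.24 (adjusted p = 0.164). TRIAP1 lost its call without labelled-intact DMSO replicate 1 (-0.32, adjusted p = 0.0711) or 3 (-0.33, adjusted p = 0.0673). SUSD6 lost its call without any 1 of the 1 µM or labelled-intact DMSO libraries and without labelled-deleted DMSO replicate 1 (0.28, adjusted p = 0.11) or 3. The 1 µM and 170 nM libraries are outside this comparison and enter it only through the single fit of all groups.

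**Figure D5:**
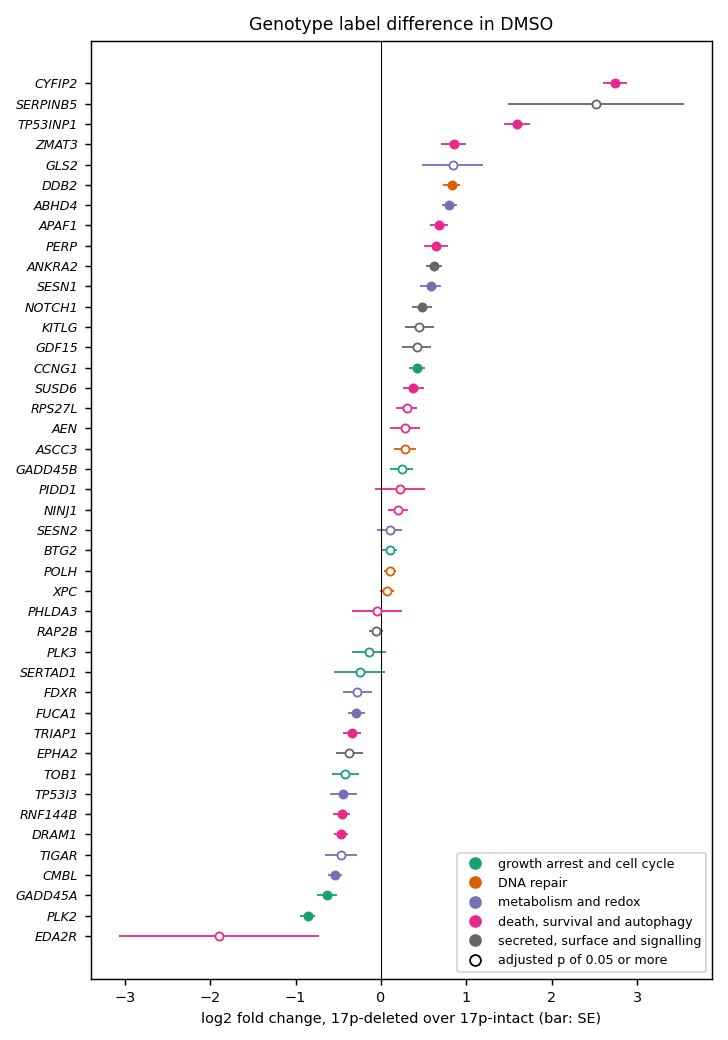
Log2 fold change of each tested member (x axis, bars SE) in labelled-deleted against labelled-intact cells in DMSO, coloured by role and sorted by size, with open points for members that did not pass. The members spread to both sides of 0, from EDA2R at -1.9, which rested on few counts, to CYFIP2 at 2.74.

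Treated cells of both kinds were compared next, at 1 µM in labelled-deleted and 170 nM in labelled-intact cells, so that dose and genotype cannot be told apart. Of the 43 members, 41 were higher, 2 were lower and all passed, where 47.8% of all genes passed, 25.9% higher and 21.9% lower. No library of 1 group reached the other in those 41 and 2 genes, against 31.4% of all genes with labelled-deleted libraries all higher and 25.6% with them all lower. The summed mesenchymal markers were at 5050 to 5160 CPM in labelled-deleted and 8580 to 8680 CPM in labelled-intact libraries, and their part was not tested. AXL and COL6A1 averaged higher in the labelled-deleted libraries, and the other markers lower. The median was 1.91 against 0.02 over all genes. CYFIP2 was at 129, 130 and 139 CPM in labelled-deleted and at 2.18, 2.76 and 2.15 CPM in labelled-intact libraries, a log2 fold change of 5.81 (SE 0.16, adjusted p = 2.43e-11). BTG2 differed by 3.54 (SE 0.09), ABHD4 by 2.69 (SE 0.09), DDB2 by 2.76 (SE 0.10) and GDF15 by 5.02 (SE 0.19). SERPINB5 had 918 counts over the labelled-deleted and 2 over the labelled-intact libraries, a ratio of 435 (exact 95% interval 120 to 3600, counting error only). Both labelled-intact counts were in 170 nM replicate 1, so without it those libraries were all at 0. The fitted log2 fold change of SERPINB5, which depends on the prior count, was 8.50, and 7.90 without 170 nM replicate 3.

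The 2 lower members were PLK2 and TOB1. PLK2 was at 446, 453 and 453 CPM in labelled-deleted and 603, 546 and 547 CPM in labelled-intact libraries, a difference of -0.33 (SE 0.09, adjusted p = 0.00692). TOB1 was at 62.1, 62.0 and 67.9 CPM in labelled-deleted and 100.7, 72.0 and 83.0 CPM in labelled-intact libraries, a difference of -0.41 (SE 0.16, adjusted p = 0.0443). The groups did not overlap in either gene. The TOB1 call was lost without 1 µM replicate 1 or 2, without 170 nM replicate 1 (-0.32, adjusted p = 0.12) or 3, and without labelled-intact DMSO replicate 1 or 3. It was also lost with scaling by library totals (-0.33, adjusted p = 0.0609). SERTAD1, higher by 0.87, lost its call without any 1 of the 1 µM libraries, without 170 nM replicate 1 (0.58, adjusted p = 0.13) or 3, without labelled-intact DMSO replicate 2, and with DESeq2 (0.85, adjusted p = 0.06). The labelled-intact DMSO libraries are outside this comparison and enter it only through the single fit of all groups.

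The difference of the doxorubicin effects, tested as an interaction of the labelled-deleted effect at 1 µM less the labelled-intact effect at 170 nM, passed in 39 of 43 members, all higher, where 10.3% of all genes passed upward and 6.74% downward. Its median was 1.77 log2 units for the members, against -0.03 for all genes and 1.78 for the 52 other targets, of which 45 passed upward. Both doses and genotypes enter it, and each effect keeps its own DMSO libraries as control. For GDF15, treated and DMSO libraries of labelled-intact cells were at 3.98, 5.12 and 3.87 CPM and at 3.86, 3.38 and 4.17 CPM, and the difference of effects was 4.60 (SE 0.25, adjusted p = 7.88e-08). For TP53I3 they were at 22.1, 27.8 and 28.8 CPM and at 22.9, 23.3 and 26.1 CPM, and the difference was 3.83 (SE 0.23, adjusted p = 1.69e-07). In both genes the labelled-intact groups overlapped, while the labelled-deleted groups were far apart.

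RNF144B was at 28.1, 22.4 and 27.5 CPM with 170 nM and at 31.6, 29.5 and 30.2 CPM in labelled-intact DMSO, and the difference of effects was 2.62 (SE 0.14, adjusted p = 7.88e-08). CMBL was at 47.3, 47.7 and 48.8 CPM with 170 nM and at 45.8, 45.1 and 45.5 CPM in labelled-intact DMSO, with a difference of 1.79 (SE 0.11, adjusted p = 1.73e-07). BTG2 had a difference of 3.44 (SE 0.12, adjusted p = 3.28e-09). TOB1 did not pass at 0.01 (SE 0.22, adjusted p = 0.994), nor did GADD45B at 0.46 (adjusted p = 0.112), SERTAD1 at 1.11 (adjusted p = 0.0926) or SERPINB5 at 5.98 (SE 2.08, adjusted p = 0.0663). EDA2R passed at 5.59 (adjusted p = 0.0147) and not without labelled-intact DMSO replicate 2 (5.24, adjusted p = 0.0544). Its value was 4.54 without the libraries of high mitochondrial share (adjusted p = 0.0265) and 8.38 without labelled-deleted DMSO replicate 3 (adjusted p = 0.0104).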

How the data were processed

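Counts per gene in 12 libraries were used as the authors deposited them, unnormalised. Per the submitters' processing notes, the build was hg38 and the tools included STAR 2.7.9a and featureCounts (Subread 2.0.1). Which annotation release was counted, and with which strand setting, is not given in the sources used here. Gene symbols came from a separate list of gene names, which held 60463 of the 60660 identifiers. Positions on hg38, exon lengths and GC content, that of the longest transcript of a gene, came from GENCODE 29, which gave a position for 58429 of them. No column of other samples was present (0).

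A single edgeR 4.0.16 quasi-likelihood model (R 4.3.3, limma 3.58.1) held all 4 groups, after filterByExpr had kept 21803 genes and TMM (trimmed mean of M values) had scaled the libraries. All libraries share the filter, the scaling and the estimate of spread, so a library outside a comparison can still move its calls. P-values were adjusted by Benjamini-Hochberg across every gene in a comparison and called under 0.05. CPM are counts per 1e6 scaled by TMM, and CPM per kilobase are those divided by exon length. SE is the absolute log2 fold change over the square root of F. Ratios of genes with 3 or fewer counts in a group carry exact 95% binomial intervals. Precision at each depth is given as the CPM of 3 counts. Pairs of replicates differed by more than sampling noise, so none was merged. The code was tested on simulated data.

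The members, gene lists and tests were chosen with earlier results of these data known, and no test was made over a list. Genes with a value in every library in the 1 µM effect are, per role, the 3 with the lowest p (2 for DNA repair) and those that did not pass or were not tested. In the other comparisons the 5 called members of lowest p were taken, or 3 where fewer than 3 were called. Other p53 targets shown are CDKN1A, MDM2 and the 3 largest and 3 smallest changes past the threshold. Further members were described to account for every gene, and their per-library values were chosen after being seen. Alternatives were size factors of the relative log expression kind (RLE), library totals, no filter, 1 CPM required in 3 libraries, the DESeq2 1.42.0 Wald test, the replicate number as a block, removal of a loess trend with GC content (span 0.5), and leaving out single libraries or both libraries of high mitochondrial share. Protein sequences were not used here.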

Additional observations from a re-analysis of the deposited data

Results flagged for a closer look

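The doxorubicin effect differed between the 2 kinds of cells in 39 of 43 members, all of them with the larger effect in labelled-deleted cells at 1 µM (edgeR interaction, adjusted p under 0.05). Of all genes tested, 10.3% passed upward and 6.74% downward. The 5 called members of lowest p in this test are given here. The difference in log2 fold change, labelled-deleted less labelled-intact, was 3.44 for BTG2, 3.83 for TP53I3, 1.79 for CMBL, 2.62 for RNF144B and 4.60 for GDF15. In each of these genes all 3 libraries at 1 µM were above all 3 labelled-deleted DMSO libraries, which held for 24.6% of all genes tested. The dose was 1 µM in labelled-deleted and 170 nM in labelled-intact cells, so dose and genotype cannot be told apart.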

How the results depend on the processing

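No value reversed its direction where the result was called. The number of members called higher stayed between 41 and 43 for 1 µM against DMSO, between 11 and 17 for the genotype label in DMSO, between 40 and 41 in treated cells and between 38 and 41 for the difference of effects. At 170 nM, members called higher (0) came to 1 with no filter, 6 with DESeq2, 4 with the GC trend removed, 3 without the 2 libraries of high mitochondrial share, and 0 to 1 leaving out single libraries. Over all genes at 170 nM, the 13 calls came to 48 with library totals, 196 with no filter and 65 with the 1 CPM filter. They came to 314 with DESeq2, 395 with the GC trend removed and 195 without both libraries of high mitochondrial share. Without single libraries they came to 0 to 220. The 220 calls came without labelled-deleted DMSO replicate 2. That library is outside this comparison and enters it only through the single fit of all groups. The cause of these shifts was not tested. Members lower in DMSO (8) ranged from 5 to 10 without single libraries. Members lower in treated cells (2) came to 1 with library totals and 1 to 2 without single libraries. Library totals moved the median of all genes in the difference of effects to 0.08, against -0.03, and the share of calls that were higher to 71.3%, against 60.3%. At 170 nM they moved that share to 14.6%, against 46.2%. Of 172 group levels, 16 moved by more than their SD with library totals.

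With the replicate number as a block, all-gene calls at 170 nM came to 0 and members lower in treated cells to 1, with TOB1 at -0.41 (adjusted p = 0.0756). Samples of the same number deviated together in 6 of 18 pairs (r over 0.1, lowest -0.551) and 4 of 12 libraries correlated best with their own number, so the numbers were not taken to pair samples.

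Depth limited EDA2R and SERPINB5, which had few counts outside the 1 µM libraries, and SPATA18, which had few counts in every library. Replicates of unknown origin, 3 in a group, limit every p-value.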
